A study of Homo sapiens with 12 samples.

Results

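The genes described here are 10 secreted factors and receptors of bone metastasis: IL11, PTHLH, CSF1, TNFSF11, TNFRSF11B, CXCR4, VCAM1, SPP1, IBSP and ADAMTS1. They were chosen by name, with no value in the rule but with earlier results of these data known, and all 10 were found among the 29972 gene rows of each deposited table. RNA-seq of poly(A) RNA was made from 12 libraries of 2 human lines of triple-negative breast cancer after knockdown of PHF19. The lines were MDA-MB-436 and the bone-tropic BoM-1833. PHF19 is a Polycomb-like protein that associates with the Polycomb repressive complex that methylates histone H3. Each line has 3 libraries of cells given siNT, a non-targeting control pool, and 3 of cells given siPHF19, a pair of siRNAs mixed in equal parts. All 4 groups were transfected with 5 nM siRNA in total and harvested after 72 h, so every control library also carries a transfected siRNA. The control pool and the PHF19 siRNAs come from different suppliers, the PHF19 siRNAs are not separated in these libraries, and each line is 1 tumour line grown without bone cells.

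Tumour cells in bone are known to secrete factors that make osteoblasts and stromal cells display RANKL, the protein of TNFSF11, which drives osteoclasts to form and resorb bone. PTHrP (PTHLH) and interleukin-11 (IL11) are classical factors of this kind, M-CSF (CSF1) keeps osteoclast precursors alive, and osteoprotegerin (TNFRSF11B) binds RANKL as a decoy and blocks it. CXCR4 is a receptor for the marrow chemokine CXCL12, VCAM1 binds integrin α4β1 on osteoclast precursors, osteopontin (SPP1) and bone sialoprotein (IBSP) are mineral-binding matrix proteins, and ADAMTS1 is a secreted metalloprotease that releases EGF-like ligands.

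The libraries held 13748100 to 24010271 reads in genes. PHF19 itself, the check of the labels, had 3353 ± 411 normalized counts with siNT and 327 ± 12.8 with siPHF19 in MDA-MB-436 (SD, n = 3). The BoM-1833 values were 1688 ± 20.9 and 185 ± 14.2 (SD, n = 3). Libraries within a group differed by more than counting noise, with chi-square values per degree of freedom of 6.18 to 25.5 among siNT pairs and 2.32 to 3.56 among siPHF19 pairs. The labels do not say that replicates were separate cultures, so p-values measure the spread between these libraries, which may be technical. The 4 genes listed as markers of a mesenchymal-like breast line were VIM, CD44, KRT18 and FN1. All were above 1 RPM (reads scaled to 1000000 reads in genes per library) in every group. KRT18 is a keratin, as are KRT8 and KRT19 below. Its means with siNT and siPHF19 were 266 and 324 RPM in MDA-MB-436, and 469 and 652 in BoM-1833. Of 3 genes listed as low in triple-negative lines, ESR1 and PGR were at or near 0. The third, ERBB2, had means of 56.3 and 59.7 RPM in MDA-MB-436, and 62.1 and 67.7 in BoM-1833. The defining osteoclast gene DCSTAMP and osteoblast gene SP7 had 0 reads in all groups; the summed level of 4 osteoclast markers was at most 2.04 RPM and that of 4 osteoblast markers at most 0.263 in any library. The summed level of 4 epithelial markers, most of it from KRT8 in MDA-MB-436, was 58.1 to 64.4 RPM with siNT and 92.5 to 105 with siPHF19 there, and 850 to 917 against 1177 to 1225 in BoM-1833. In the BoM-1833 groups KRT8 had means of 525 and 865 RPM with siNT and siPHF19, KRT19 344 and 323, and EPCAM 7.17 and 5.58. Its part in the results below was not tested.

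CSF1 and IL11 were the most abundant of the 10 transcripts in both lines. In RPKM, which is RPM per kilobase of merged exon, CSF1 had a level of 27.4 ± 2.34 (SD, n = 3) in MDA-MB-436 siNT libraries, IL11 6.85 ± 0.140, TNFRSF11B 1.87 ± 0.249, CXCR4 0.369 ± 0.0760, PTHLH 0.291 ± 0.0617 and ADAMTS1 0.132 ± 0.0236. The ranges of CXCR4 and PTHLH overlapped, so their order is not resolved, whereas the other neighbours among these 6 were separate. In BoM-1833 siNT libraries the level was 163 ± 9.91 (SD, n = 3) for CSF1, 50.9 ± 1.88 for IL11, 25.7 ± 1.39 for ADAMTS1, 5.61 ± 0.718 for TNFRSF11B, 5.43 ± 0.667 for CXCR4 and 0.218 ± 0.0688 for PTHLH. There TNFRSF11B and CXCR4 overlapped. VCAM1, SPP1, IBSP and TNFSF11 had between 0 and 3 reads in each group of 3 libraries.

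**Figure D1:**
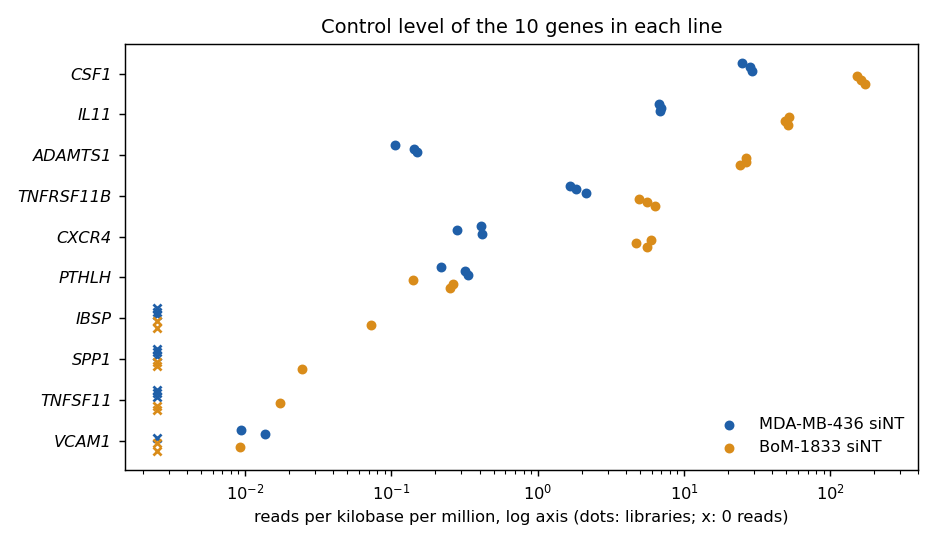
Control level of each of the 10 genes, in RPKM on a log axis, with a dot for each of 3 siNT libraries per line and a cross at the left for a library with 0 reads. CSF1, IL11, ADAMTS1, TNFRSF11B and CXCR4 lie further to the right in BoM-1833, PTHLH overlaps between the lines, and the last 4 genes are at the limit of detection.

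The control levels of IL11, CSF1, TNFRSF11B, CXCR4 and ADAMTS1 were higher in BoM-1833. The siNT mean in RPM was 195-fold that of MDA-MB-436 for ADAMTS1, 14.7-fold for CXCR4, 7.43-fold for IL11, 5.95-fold for CSF1 and 2.999-fold for TNFRSF11B. Library ranges of the lines did not overlap for any of these 5, which is a common outcome, since the same held for 82.2% of 13593 genes with a mean of at least 1 RPM. PTHLH, at 0.752 of the MDA-MB-436 level, overlapped. These are levels set across tables that were normalized separately, rescaled here to RPM, and no test was made, because line and preparation cannot be told apart.

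After siPHF19, IL11 fell in MDA-MB-436 and TNFRSF11B and CSF1 rose in BoM-1833. A gene was called where its Benjamini-Hochberg adjusted p from the deposited DESeq2 test was below 0.05. In MDA-MB-436, 6 of the 10 genes were tested, 1 was called lower and 0 higher, against a background of 22.1% of 14243 tested genes called (11.5% lower, 10.5% higher). In BoM-1833, 5 were tested, 2 were called higher and 0 lower, against 10.9% of 12906 tested genes (5.21% higher, 5.72% lower). At an unadjusted p below 0.05, 3 members passed in MDA-MB-436 against 2 in BoM-1833, and edgeR called 1 higher (CXCR4) in MDA-MB-436. With so few genes tested, these counts are read as single genes and not as a change of the group. The tested members had a median log2 fold change of 0.00 in MDA-MB-436 against 0.10 in BoM-1833, beside 0.00 over all tested genes in each line. Normalized counts of the siNT and siPHF19 groups did not overlap for 4 members in MDA-MB-436 (42.2% of tested genes) and for 3 in BoM-1833 (31.0%). The genes not tested are those to which the deposited tables give no adjusted p.

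**Figure D2:**
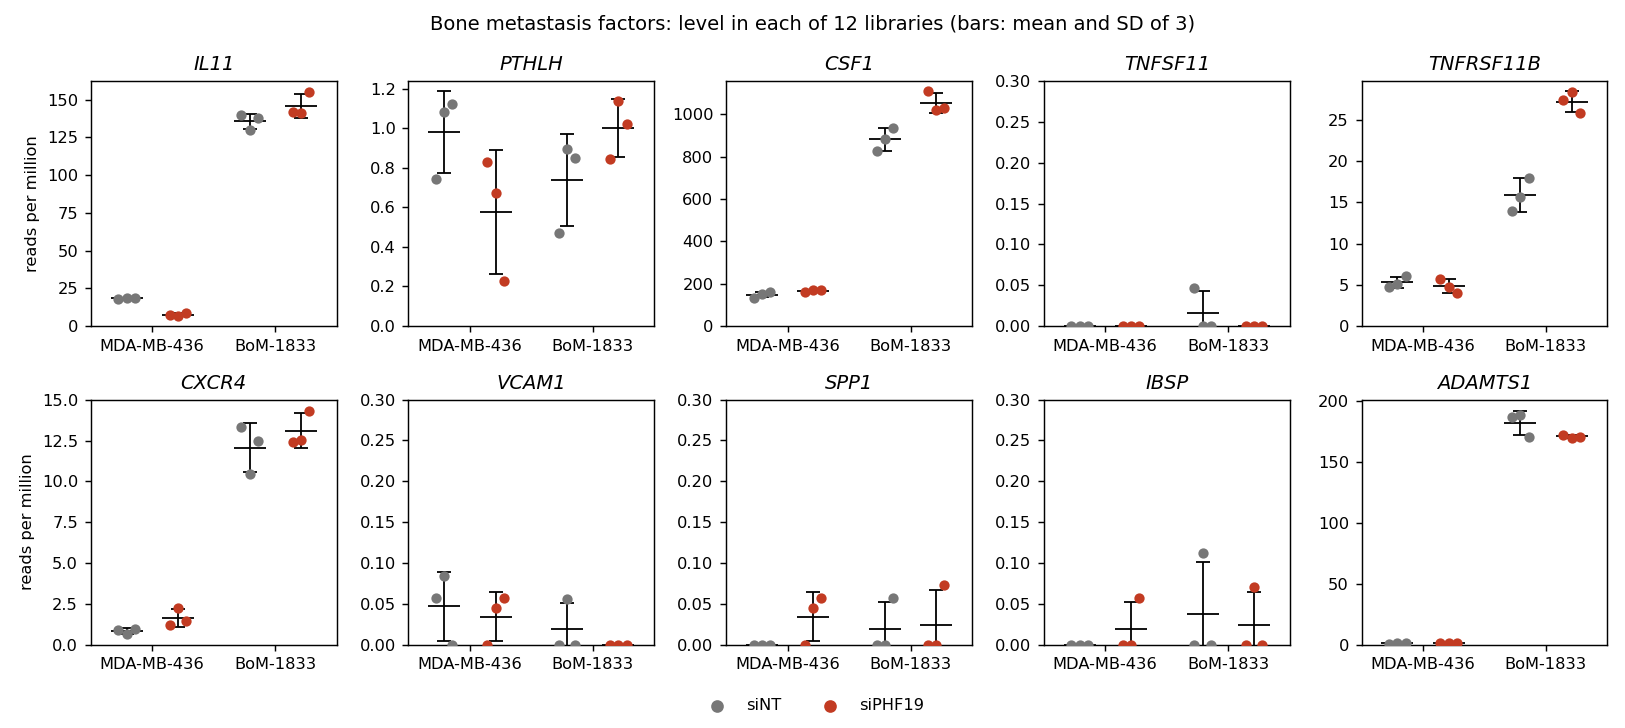
RPM for each of the 10 genes in each of the 12 libraries, on a linear axis that differs between panels, with a dot per library and bars for the mean and SD of 3, grey for siNT and red for siPHF19. IL11 is lower in the siPHF19 libraries of MDA-MB-436, TNFRSF11B is higher in those of BoM-1833, and VCAM1, SPP1, IBSP and TNFSF11 stay near 0 throughout.

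IL11 lies on the minus strand of chromosome 19 (GRCh38, 55364389 to 55370463) and encodes a cytokine that signals through gp130. In MDA-MB-436 it had 343, 347 and 340.0 normalized counts with siNT and 129, 128 and 162 with siPHF19. The mean fell from 343 ± 3.66 to 139 ± 19.3 (SD, n = 3), leaving 40.6% of the control level, and the groups were far apart. The authors' deposited table lists its log2 fold change as -1.31 (SE 0.15, 95% interval -1.59 to -1.02, adjusted p 4.5e-17). By p-value it stood 83rd among the 1644 genes called lower. In BoM-1833 the counts were 2358, 2153 and 2316 with siNT and 2339, 2346 and 2559.9 with siPHF19, and these overlap. There the log2 fold change in the authors' deposited table is 0.08 (SE 0.07, 95% interval -0.05 to 0.22, adjusted p 0.553). The difference between the lines in IL11's log2 fold change was 1.39 (95% interval 1.07 to 1.71, BoM-1833 minus MDA-MB-436, adjusted p 1.24e-14 by a z test over 12290 genes, of which 4.89% differed). Its level after knockdown was 7.54 ± 1.03 RPM (SD, n = 3) in MDA-MB-436 against 146 ± 7.79 in BoM-1833.

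Because IL11 carried the largest change among the tested members, its promoter is shown. The 250 bases before its RefSeq start (GRCh38.p14, chr19:55370464-55370713, minus strand, written 5′ to 3′ toward the start) hold an AP-1 match, TGAGTCA, and a TATA-like TATATAA, both in capitals:
IL11: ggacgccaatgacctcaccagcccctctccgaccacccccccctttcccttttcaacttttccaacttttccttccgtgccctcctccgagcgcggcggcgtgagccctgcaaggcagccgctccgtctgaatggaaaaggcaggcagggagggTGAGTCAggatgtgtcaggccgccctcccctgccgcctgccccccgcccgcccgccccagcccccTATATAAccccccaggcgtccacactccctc
The AP-1 match begins 96 bases and the TATATAA 31 bases upstream of the start. On either strand, 6.57% of 35097 RefSeq promoter windows of this length hold TGANTCA and 2.42% hold TATATAA. In all, 7 motifs were searched, from a list drawn up after the sequence had been read, and the other 5 (an NF-kB motif, GGAATG for TEAD proteins, GTCTAGAC for SMAD proteins, TATAAA, and TGTGGT for RUNX proteins) had no match in this window. A match is a description of the letters and not evidence of a bound factor. The promoter table held 7 of the 10 genes, all but CSF1, ADAMTS1 and TNFRSF11B. Of these 7, TATAAA occurred in CXCR4, IBSP, TNFSF11 and VCAM1, TGTGGT in SPP1, and TGANTCA and TATATAA in IL11.

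The genes at the limit of detection had few CpG sites before their starts: VCAM1 had 2 in 250 bases, SPP1 3, IBSP 4, and TNFSF11 2 and 6 at its alternative starts. The median over all 35097 windows was 11. PTHLH had 19, IL11 16 and CXCR4 24, 12 and 8 at its 3 starts. This is a description of 7 genes, with no test.

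PTHLH (GRCh38 chromosome 12, 27958084 to 27972705, minus strand), the source of PTHrP, was low in both lines and was not called. In MDA-MB-436 its normalized counts were 14.2, 20.2 and 20.8 with siNT and 15.3, 12.4 and 4.22 with siPHF19, and the groups overlapped. The authors' deposited table lists -0.79 on the log2 scale (SE 0.56, adjusted p 0.338). In BoM-1833 the counts were 7.94, 14.8 and 14.3 against 13.9, 18.9 and 16.8, and the gene was not tested. An antisense transcript, AC008011.2, overlaps PTHLH, and whether the counting used strand is not given in the sources used here. Reads of the pair may therefore be mixed.

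CSF1 (GRCh38 chromosome 1, 109910242 to 109930992, plus strand), the macrophage colony-stimulating factor, rose modestly in BoM-1833. Its normalized counts there were 13971, 14582 and 15737 with siNT and 18253, 16946 and 17029 with siPHF19, so every knockdown library was above every control. The mean went from 14763 ± 897 to 17409 ± 732 (SD, n = 3). The authors' deposited table lists its log2 fold change as 0.24 (SE 0.06, 95% interval 0.12 to 0.36, adjusted p 0.00187). The call was lost without siPHF19 replicate 1 (adjusted p 0.0638, DESeq2 on recovered reads). In MDA-MB-436 the counts were 2563, 2838 and 2939 against 2985, 3145 and 3136, and again the groups did not overlap. There the log2 fold change in the authors' deposited table is 0.15 (SE 0.08, adjusted p 0.141). It was called without siNT replicate 3 (adjusted p 0.0370, DESeq2 on recovered reads). The change did not differ detectably between lines (difference 0.09, 95% interval -0.10 to 0.28, adjusted p 0.737, z test over all genes).

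TNFRSF11B (GRCh38 chromosome 8, 118923557 to 118952200, minus strand), the decoy receptor of RANKL, rose in BoM-1833. Its normalized counts were 235, 259 and 302 with siNT and 451, 472 and 426 with siPHF19, with no overlap. The mean rose from 266 ± 34.2 to 449.7 ± 22.7 (SD, n = 3). The authors' deposited table lists its log2 fold change as 0.76 (SE 0.13, 95% interval 0.52 to 1.01, adjusted p 1.11e-07), which is 1.70-fold, and the gene stood 89th by p-value among the 673 called higher. In MDA-MB-436 the counts were 89.5, 95.3 and 113 with siNT and 104.7, 87.8 and 75.0 with siPHF19, which overlap. There the authors' deposited table lists -0.15 (SE 0.22, adjusted p 0.684). The difference between the lines was 0.91 (95% interval 0.42 to 1.41, adjusted p 0.0104, z test over all genes). That difference missed the threshold without MDA-MB-436 siNT replicate 2 (adjusted p 0.0744), siNT replicate 3 (0.0508), siPHF19 replicate 2 (0.0909) or siPHF19 replicate 3 (0.120), from DESeq2 refits. TNFSF11, the gene of RANKL itself, had 0 reads in all MDA-MB-436 libraries and 1 read in BoM-1833, in a siNT library. With 3 counts as the limit that 0 allows, its level in MDA-MB-436 siNT libraries was below 0.0529 RPM over 56727553 reads, an allowance for counting error only.

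**Figure D3:**
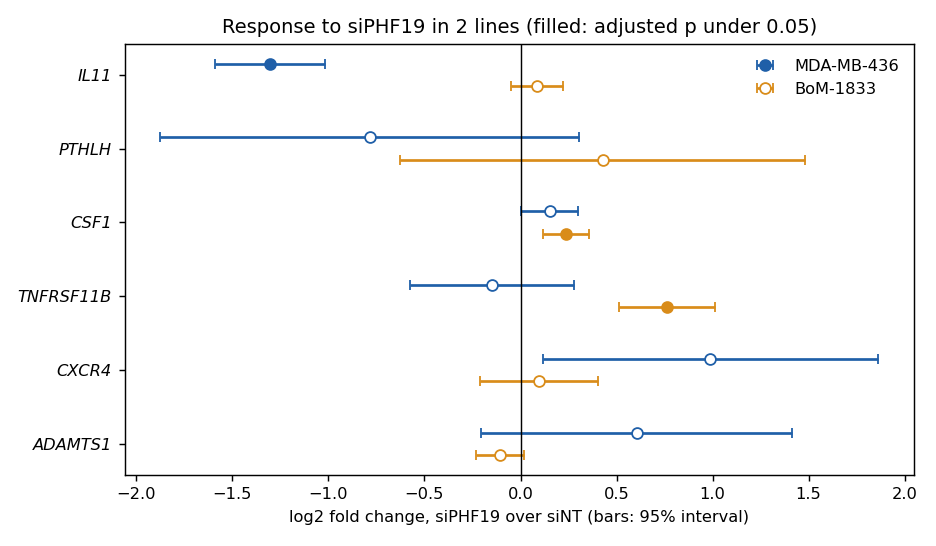
Log2 fold change after siPHF19 from the authors' deposited tables, for 6 genes in each line, filled where called. Bars are 95% intervals computed from the deposited SE. PTHLH in BoM-1833 was not tested. IL11 in MDA-MB-436 (-1.31) and TNFRSF11B (0.76) and CSF1 (0.24) in BoM-1833 are filled, and the remaining symbols are open.

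CXCR4 (GRCh38 chromosome 2, 136114349 to 136118165, minus strand), the CXCL12 receptor used in homing to marrow, was scarce in MDA-MB-436. Its normalized counts were 17.5, 11.6 and 17.1 with siNT and 21.8, 41.4 and 26.4 with siPHF19. The groups do not overlap, but the authors' deposited table lists 0.99 (SE 0.45, 95% interval 0.11 to 1.86, adjusted p 0.0970), so it was not called there. On the recovered reads edgeR's quasi-likelihood test did call it (log2 fold change 1.01, adjusted p 0.0466). In BoM-1833 the counts were 225, 172 and 209.9 against 205, 209 and 237, which overlap. There the authors' deposited table lists 0.10 (SE 0.16, adjusted p 0.817). The difference between lines was -0.89 (95% interval -1.82 to 0.03, adjusted p 0.340, z test over all genes). VCAM1, the endothelial-type adhesion molecule, had 3 reads with siNT and 2 with siPHF19 in MDA-MB-436, and 1 and 0 in BoM-1833.

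The matrix genes SPP1 and IBSP were at the limit of detection. SPP1 had 0 reads with siNT and 2 with siPHF19 in MDA-MB-436, and 1 in each BoM-1833 group. IBSP had 0 and 1 reads in MDA-MB-436 and 2 and 1 in BoM-1833. The exact Poisson 95% interval for IBSP in BoM-1833 siNT libraries was 0.00426 to 0.127 RPM, for counting error only. No change of VCAM1, SPP1, IBSP or TNFSF11 was detectable at this depth.

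ADAMTS1 (GRCh38 chromosome 21, 26835747 to 26845409, minus strand) was abundant in BoM-1833 and near the limit of testing in MDA-MB-436. Its normalized counts in BoM-1833 were 3141, 3111 and 2865 with siNT and 2833, 2820 and 2809 with siPHF19, which are adjacent without overlap. The authors' deposited table lists -0.11 (SE 0.06, 95% interval -0.23 to 0.02, adjusted p 0.335). In MDA-MB-436 the counts were 14.2, 18.6 and 19.6 against 28.3, 28.99 and 22.2, also without overlap. There the authors' deposited table lists 0.60 (SE 0.41, 95% interval -0.21 to 1.41, adjusted p 0.319). Its difference between lines was -0.71 (95% interval -1.53 to 0.11, adjusted p 0.408, z test over all genes).

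The direct partners of these proteins were described whatever their values, 13 genes in all. In MDA-MB-436, 9 were tested, 1 was called higher and 2 lower; in BoM-1833, 8 were tested, 1 was called higher and 0 lower. Over all tested genes 22.1% and 10.9% were called, so the count of partners in BoM-1833 is near the background. The IL11 receptor chains IL11RA and IL6ST (gp130) were present in both lines and not called: IL11RA had 5.41 ± 0.582 and 3.92 ± 0.329 RPM (SD, n = 3) in siNT libraries of MDA-MB-436 and BoM-1833, and IL6ST 314 ± 47.2 and 473 ± 78.2. RANK (TNFRSF11A), the RANKL receptor, had 0.454 ± 0.150 and 18.05 ± 1.995 RPM (SD, n = 3) in the same groups and was not called. ITGA4, which pairs with ITGB1 to bind VCAM1, had 113 ± 9.49 RPM (SD, n = 3) in MDA-MB-436 siNT libraries but 1 read in BoM-1833. CXCL12 had 1 read in all MDA-MB-436 libraries together and 0 in those of BoM-1833, so the ligand of CXCR4 was at the limit of detection. The M-CSF receptor CSF1R had 1.54 ± 0.177 RPM (SD, n = 3) in BoM-1833 siNT libraries and 0 reads in those of MDA-MB-436.

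Among the partners that were called in MDA-MB-436, the second CSF1R ligand IL34 rose, with 1.93 on the log2 scale per the authors' deposited table (SE 0.44, adjusted p 0.000144), from 6.55, 17.1 and 9.78 to 34.9, 45.6 and 50.7 normalized counts. The osteopontin receptors ITGB1 and CD44 fell there by 0.25 and 0.29 per the authors' deposited table (adjusted p 0.000554 and 2.66e-05). In BoM-1833 ITGB3, the partner of ITGAV in the integrin that binds osteopontin and bone sialoprotein, rose by 0.71 per the authors' deposited table (SE 0.14, adjusted p 2.33e-05). The responses of ITGB1 and CD44 differed between lines (differences 0.30 and 0.29, adjusted p 0.00993 and 0.0123, z test over all genes). For ITGB3 the difference was 0.12 (95% interval -0.54 to 0.79, adjusted p 0.907).

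The wider pathways of the 10 genes were covered by 9 lists with 147 genes, which leave out the 10 members themselves. Each count below is thus over the other genes of a pathway. These include the partners described above, so the calls of IL34, ITGB1, CD44 and ITGB3 are counted again. In MDA-MB-436, 108 of the listed genes were tested, 15 were called higher and 18 lower, which is 30.6% called beside 22.1% of all genes. In BoM-1833, 101 were tested, 15 were called higher and 17 lower, 31.7% beside 10.9%. The lists were chosen with earlier results known, so these shares are descriptions. Their median log2 fold changes were 0.02 in each line. In fits without 1 library, added after seeing the data, 7 of the 45 calls named from lists and partners were lost at least once. These are marked where they stand. A fit that gave a gene no adjusted p was not counted as a loss, which applies to IL1A in BoM-1833 in 2 fits.

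**Figure D4:**
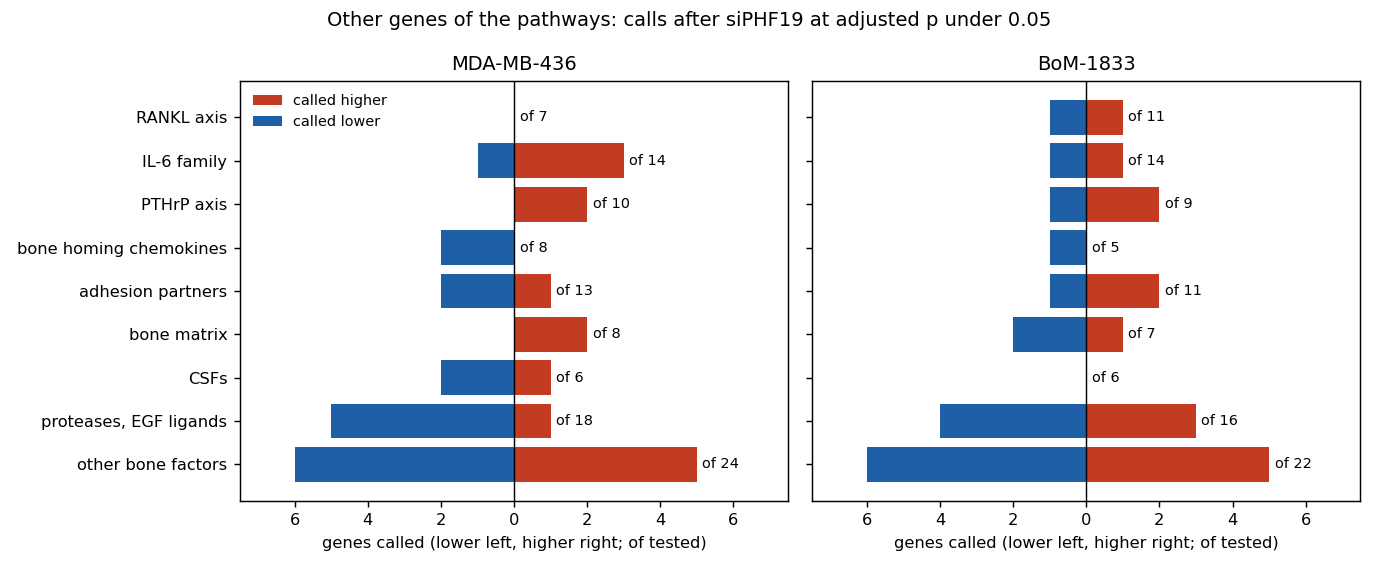
Number of genes called higher (red, to the right of 0) and lower (blue, to the left) in each of the 9 pathway lists, 1 panel per line, with the number tested beside each bar. The other secreted factors with bone activity (11 called in each line) and the metalloprotease list (6 and 7) hold most calls, and the RANKL list has 0 in MDA-MB-436 against 2 in BoM-1833.

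In the interleukin-6 family, IL11 left out, 4 of 14 tested genes were called in MDA-MB-436, 3 higher and 1 lower, and 2 of 14 in BoM-1833, 1 each way. These shares, 28.6% and 14.3%, stand beside 22.1% and 10.9% of all tested genes called, MDA-MB-436 first. IL6 rose by 0.49 and STAT3, the shared signal transducer, by 0.33 in the MDA-MB-436 libraries per the authors' deposited table (adjusted p 3.95e-12 and 5.68e-05). LIF, another gp130 cytokine, fell by 0.70 in MDA-MB-436 and by 0.33 in the BoM-1833 libraries per the authors' deposited tables (adjusted p 1.7e-10 and 0.00025). STAT3 rose by 0.31 in the BoM-1833 libraries per the authors' deposited table (adjusted p 3.91e-06). IL11 and LIF were thus called lower and IL6 higher in the MDA-MB-436 libraries. CSF1 was called higher in BoM-1833. Of the other colony-stimulating factors and receptors, 3 of 6 were called in MDA-MB-436 (22.1% of all genes) against 0 of 6 in BoM-1833 (10.9%). DESeq2 and edgeR on recovered reads also called 0 in the latter, where 2 genes had an unadjusted p below 0.05. CSF3, the granulocyte factor, fell by 2.28 per the authors' deposited table of MDA-MB-436 (SE 0.09, adjusted p 1.24e-125). Its difference between lines was 1.28 (adjusted p 0.0706, z test), which misses the threshold.

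The RANKL axis list leaves out TNFRSF11B, which was called higher in BoM-1833. Of its tested genes, 0 of 7 were called in MDA-MB-436 (22.1% of all genes) against 2 of 11 in BoM-1833 (10.9%). With so few genes, these counts are not read as a difference between the lines. DESeq2 and edgeR on recovered reads also called 0 of that list in MDA-MB-436, where 1 gene had an unadjusted p below 0.05. LGR4, an alternative RANKL receptor, rose by 0.49 and TNFRSF10D, a decoy receptor of TRAIL, fell by 0.32 per the authors' deposited table of BoM-1833 (adjusted p 4.47e-07 and 0.000447). LGR4 differed between lines by 0.70 (adjusted p 0.000296, z test). In the list around PTHLH, 2 of 10 tested genes were called higher in MDA-MB-436, a share of 20% beside 22.1% of all genes. The BoM-1833 count was 2 higher and 1 lower of 9, which is 33.3% beside 10.9%. TGFB2, a growth factor known to raise PTHrP in tumour cells, rose by 0.68 and 0.59 in the MDA-MB-436 and BoM-1833 libraries, respectively, per the authors' deposited tables (adjusted p 8.99e-15 and 1.69e-12). SMAD3, a transducer of TGF-β signals, rose by 0.23 per the authors' deposited table of MDA-MB-436 (adjusted p 0.0228), a call lost without siNT replicate 2 or any 1 siPHF19 library. For BoM-1833 the authors' deposited table lists TGFB1 at 0.37 (adjusted p 2.24e-07) and SMAD4, the shared SMAD partner, at -0.30 (adjusted p 0.00555). The SMAD4 call was lost without siNT replicate 2, siPHF19 replicate 1 or siPHF19 replicate 2.

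Around CXCR4, 2 of 8 tested homing genes were called lower in MDA-MB-436 and 1 of 5 in BoM-1833, beside 22.1% and 10.9% of all genes called. The neutrophil chemokine CXCL8 fell by 0.94 and 0.38, MDA-MB-436 first, per the authors' deposited tables (adjusted p 5.8e-32 and 0.000238), and CXCL1 fell by 0.44 in the MDA-MB-436 libraries (adjusted p 1.67e-05). Of the adhesion genes around VCAM1, 3 of 13 were called in MDA-MB-436, 1 higher and 2 lower, and 3 of 11 in BoM-1833, 2 higher and 1 lower. The MDA-MB-436 shares of both lists, 25% and 23.1%, are near the background. CDH2 (N-cadherin) rose by 0.48 in MDA-MB-436 and CDH11, an osteoblast-type cadherin, by 0.38 in the BoM-1833 libraries per the authors' deposited tables (adjusted p 2.46e-12 and 0.0102). MSN (moesin), a membrane-cytoskeleton linker, fell by 0.18 per the authors' deposited table of BoM-1833 (adjusted p 0.0269). The CDH11 call was lost without siNT replicate 2, siPHF19 replicate 1 or siPHF19 replicate 2, and the MSN call in 5 of 6 fits, all but that without siNT replicate 1. In the bone matrix list, 2 of 8 were called higher in MDA-MB-436, a share of 25% beside 22.1% of all genes. The BoM-1833 count was 1 higher and 2 lower of 7, which is 42.9% beside 10.9%. SPARC (osteonectin) rose by 1.54 in the MDA-MB-436 libraries per the authors' deposited table (SE 0.11, adjusted p 6.72e-41). COL1A1 rose by 0.61 and 0.63 in the 2 lines, MDA-MB-436 first, per the authors' deposited tables (adjusted p 0.0189 and 1.6e-06). The MDA-MB-436 call of COL1A1 was lost in 5 of 6 fits, all but that without siNT replicate 1. ENPP1, which makes the mineralization inhibitor pyrophosphate, fell by 0.50 and the pyrophosphate transporter gene ANKH by 0.33 per the authors' deposited table of BoM-1833 (adjusted p 5e-07 and 0.0107). The ANKH call was lost without siNT replicate 3, siPHF19 replicate 2 or siPHF19 replicate 3.

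Around ADAMTS1, 6 of 18 tested proteases and EGF-like ligands were called in MDA-MB-436, 1 higher and 5 lower, and 7 of 16 in BoM-1833, 3 higher and 4 lower. The shares, 33.3% and 43.8%, stand beside 22.1% and 10.9% of all tested genes called. MMP1, an interstitial collagenase, fell by 1.302 per the authors' deposited table of BoM-1833 (SE 0.06, adjusted p 4.48e-93). It was also called lower in MDA-MB-436, at -1.25 per the authors' deposited table (SE 0.47, adjusted p 0.0412), but that call was lost in each of the 6 fits without 1 library. MMP2, a gelatinase, fell by 1.36 and ADAMTS6 by 1.09 per the authors' deposited table of MDA-MB-436 (adjusted p 1.91e-18 and 1.09e-12). ADAMTS6 was called lower in BoM-1833 too, at -1.03 per the authors' deposited table (adjusted p 5.95e-05), and MMP2 was not tested there. Of the EGF receptor ligands, EREG fell by 0.40 in MDA-MB-436, whereas HBEGF fell by 0.72 and TGFA rose by 0.63 in BoM-1833, per the authors' deposited tables (adjusted p 0.000182, 7.55e-16 and 8.28e-10). Among other secreted factors, 11 of 24 tested genes were called in MDA-MB-436 (5 higher, 6 lower) and 11 of 22 in BoM-1833 (5 higher, 6 lower). Those shares were 45.8% and 50%, beside the same 22.1% and 10.9%. IL1B and IL1A, the interleukin-1 genes, fell by 1.82 and 0.56 in MDA-MB-436, where PDGFB rose by 1.26 per the authors' deposited table (adjusted p 1.93e-77, 5.16e-14 and 1.18e-10). Both interleukin-1 genes were also called lower in BoM-1833, IL1B at -1.28 and IL1A at -1.71 per the authors' deposited table (adjusted p 1.79e-06 and 0.000112). IL1A had no adjusted p in the fits without siNT replicate 1 or siNT replicate 3 of that line. LIPA, a lysosomal lipase gene, rose by 0.54 and 0.69 in the 2 lines, MDA-MB-436 first, per the authors' deposited tables (adjusted p 4.89e-10 and 3.47e-27). In BoM-1833 the prostaglandin synthase gene PTGS2 fell by 1.17 and BMP4 rose by 0.60 per the authors' deposited table (adjusted p 3.33e-13 and 1.5e-15).

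The genes whose levels over the 12 libraries most resembled a called member were ranked by Euclidean distance between centred log2(RPM + 0.5) profiles, over 13614 genes. For IL11 they were KCNN4 (distance 0.723) and CDA (0.816). KCNN4 had a mean of 10.7 and 5.46 RPM with siNT and siPHF19 in MDA-MB-436, beside 85.0 and 91.3 in BoM-1833, and it was called lower in MDA-MB-436, at -0.98 (adjusted p 7.14e-06) per the authors' deposited table. For CSF1 the nearest were SERINC3 (0.336) and LRP5 (0.355), and for TNFRSF11B NUDT4 (0.477) and PADI1 (0.706). Each profile includes the step between lines and the siPHF19 libraries. The response of KCNN4 was therefore partly set by the ranking, and it is a description and no further evidence.

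The 6-base word AAACTG, taken up with earlier results of these data known, was looked for in the longest annotated 3′ UTR of each of the 10 genes (GENCODE 29). It occurs 1 time each in IL11, ADAMTS1, TNFSF11 and TNFRSF11B and 0 times in the other 6 genes. The site of IL11 (GRCh38, chr19:55364921-55364950, minus strand) and that of ADAMTS1 (GRCh38, chr21:26837394-26837423, minus strand) are shown with the word in capitals, because IL11 fell in 1 line and ADAMTS1 was called in neither:
IL11: gttcaccatagcAAACTGgaaacaatctag
ADAMTS1: aatcatcagagtAAACTGccagttgcaaat
In MDA-MB-436 the word was present in 55.1% of 1520 genes called lower, 48.6% of 1382 called higher and 47.0% of all 12287 tested genes with an annotated 3′ UTR. In BoM-1833 it was present in 66.8% of 687 genes called lower, 39.0% of 638 called higher and 47.4% of 11490. Because the word was taken up with earlier results known, these shares are descriptions. They are not matched for 3′ UTR length. Genes with a 3′ UTR of like length to that of CXCR4 held the word in 18.4%, and to that of CSF1 in 60.5%. TNFRSF11B, which rose in BoM-1833, holds the word, as does IL11, which was not called there. Of genes with a 3′ UTR of like length to that of IL11, 51.2% hold it. The siRNA sequences were not used here, and the part of this word in the results was not tested.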

How the data were processed

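Per the submitters' processing notes, STAR, RSEM 1.3.1, DESeq2 1.46.0 and hg38 were used, with no role or order stated; the annotation, strand setting and any rounding are not given in the sources used here. The tables deposited by the authors hold, per gene and line, a normalized signal per library (counts divided by size factors), the log2 fold change with its SE, the Wald statistic (a score) and p-value with adjusted p-value. From the deposited counts, whole reads were recovered (100% whole within 0.01 read in every library; 13748100 to 24010271 per library) and scaled to RPM, reads per 1000000 reads in genes. The main test is the authors' deposited DESeq2 Wald test, adjusted over all tested genes. Alternatives used DESeq2 1.42.0 and edgeR 4.0.16 (at least 10 reads in at least 3 libraries) on recovered reads, tested on simulated data first. Differences between lines used a z test on the deposited values, Benjamini-Hochberg adjusted. Levels per length used merged GENCODE 29 exons. Named genes were all 10 members, 13 partners, per list and line up to 3 called genes of largest Wald statistic with a mean of at least 50 normalized counts, and the 2 genes most like each called member. The members and lists were chosen with earlier results of these data known.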

Additional observations from a re-analysis of the deposited data

Results flagged for a closer look

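Among the members, partners and list genes named here, 11 had log2 fold changes that differed between the lines by the z test over 12290 genes. Of those 12290 genes, 4.89% differed. The list genes were named because they were called in a line, so the count of 11 cannot be set against that share. Given as BoM-1833 minus MDA-MB-436, the difference was 1.39 for IL11, 0.91 for TNFRSF11B, 0.30 for ITGB1, 0.29 for CD44, 0.56 for CXCL8, 0.56 for EREG, -0.72 for HBEGF, -1.15 for IL1A, 0.70 for LGR4, -0.83 for PTGS2 and 0.48 for TGFB1. IL1A and PTGS2 passed narrowly, with adjusted p of 0.0481 and 0.0486 by the z test. It was 3.45e-05 for HBEGF, 0.000123 for CXCL8, 0.00118 for TGFB1 and 0.00601 for EREG. Differences of partners and list genes were not followed in the fits without 1 library. IL11 and TNFRSF11B were the only members among the 5 tested in both lines for which the difference passed, and CSF1, CXCR4 and ADAMTS1 did not.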

How the results depend on the processing

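IL11 kept its direction and its call in MDA-MB-436 in all 14 alternatives, and its difference between lines in all 15. The count of members called in MDA-MB-436 was 1 and became 2 with edgeR, with or without a filter on low counts and with total-count scaling, and it was 1 to 2 without 1 library. In BoM-1833 it was 2, and became 1 with the replicate block and 0 where an absolute log2 fold change of at least 1 was also required; without 1 library it was 1 to 2. CSF1 lost its BoM-1833 call in 3 of 14 alternatives, 1 of them the replicate block (adjusted p 0.0843), and TNFRSF11B in 1, the fold minimum. The members that differed between lines numbered 2, and 1 under the edgeR interaction with a replicate block or at an adjusted p below 0.01, and 1 to 2 without 1 library. Over all genes, calls in MDA-MB-436 went from 3143 to 2080 at an adjusted p below 0.01 and 275 with the fold minimum, and were 1767 to 3801 without 1 library. In BoM-1833 they went from 1411 to 857 with the replicate block, 919 and 69, and were 746 to 2046 without 1 library. CXCR4 in BoM-1833 reversed to -0.0075 without siNT replicate 2, within a range of -0.0075 to 0.18 without 1 library. No sign of pairing by replicate number was seen. Deviations of same-numbered siNT and siPHF19 libraries correlated at -0.30 to 0.02, and 1 of 6 numbers correlated best with its own. With 3 libraries per group, these correlations cannot exclude paired cultures or batches. Ratios of control levels for IL11 and CSF1 were 6.63 and 5.31 on the deposited normalized counts. The cause was not tested in any of these. Few reads limit CXCR4 and ADAMTS1 in MDA-MB-436, and PTHLH, VCAM1, SPP1, IBSP and TNFSF11 in both lines.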
